A study of Arabidopsis thaliana with 6 samples.

Results

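The comparison described here set seedlings of the auxin-synthesis line wei8tar2_MS against wild-type seedlings, Col_MS, across all 21326 genes that had enough reads to be tested. It used 4 of the 6 libraries of a series on Arabidopsis thaliana, 2 biological repeats per group, which were assigned by their labels and not by any measured value. Messenger RNA was sequenced from etiolated seedlings. Seeds took up water at 4 °C over 3 days, were lit briefly, and were then kept dark at 22 °C for 3 days. The question was which processes change when TAA1 and TAR2 are impaired. The wei8tar2_MS seedlings were of the Col-0 background on MS, a mineral culture medium, and carried mutations in WEI8 (another name of TAA1) given as wei8-/- and in TAR2 given as tar2+/-. The Col_Kyn group, set beside them for comparison, was wild-type Col-0 on MS with kynurenine, an inhibitor of the same enzymes, which the labels put at 25 mM, with no other source for the unit. The Col_MS group was wild-type Col-0 on MS alone. All groups shared the age and the darkness. The labels do not say whether seedlings were genotyped singly or taken as the pooled progeny of a heterozygous parent, nor where in each gene the mutation lies.

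Auxin, whose main natural form is indole-3-acetic acid (IAA), is made largely from tryptophan: aminotransferases of the TAA1 family form indole-3-pyruvic acid, and flavin monooxygenases of the YUC family turn it into IAA. IAA triggers the breakdown of Aux/IAA repressors, which frees auxin response factors to act on their targets, among them GH3 genes, whose enzymes attach amino acids to IAA and so lower its free level. In seedlings raised in darkness auxin is known for its part in hypocotyl elongation, the apical hook and the upkeep of the root meristem.

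The targeted genes were read in every library. TAA1 (AT1G70560), the first enzyme of the route, lies on the forward strand at chr1:26604855-26607652 in the TAIR10.1 annotation. It had 7.89 and 8.36 CPM in wei8tar2_MS, 38.4 and 41.5 CPM in Col_Kyn and 37.8 and 38.7 CPM in Col_MS, where CPM are read counts scaled to library size and between libraries by edgeR's TMM factors. TAA1 fell in the line, with a log2 fold change against Col_MS of -2.24 ± 0.11 (SE; edgeR quasi-likelihood test, adjusted p = 0.000562), and also stood lower than in Col_Kyn (-2.30, adjusted p = 0.000473). Per kilobase, in the authors' RPKM, TAA1 stood at 3.01 and 3.19 in wei8tar2_MS, 14.2 and 15.1 in Col_Kyn and 14.7 and 14.7 in Col_MS. TAR2 (AT4G24670, reverse strand, chr4:12727531-12731331) had 2.90 and 2.01 CPM in wei8tar2_MS, 7.08 and 6.29 CPM in Col_Kyn and 10.1 and 8.11 CPM in Col_MS. TAR2 fell by 1.88 ± 0.23 on the log2 scale (adjusted p = 0.0301), a call lost without Col_MS replicate 1 (adjusted p = 0.0694). Transcripts of both genes were thus still read in the line. The difference in TAR2 from Col_Kyn did not pass the test (-1.44, adjusted p = 0.268). TAR1, the family's other member, was read in none of the 6 libraries, and a count of 0 allows up to 0.110 and 0.118 CPM in wei8tar2_MS and 0.109 and 0.105 CPM in Col_MS at a limit of 3 reads.

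In all, 230 of the 21326 genes (1.08%) were called at an adjusted p under 0.05, of which 120 (0.563%) rose and 110 (0.516%) fell in wei8tar2_MS. Of these, 148 differed at least 2-fold, 77 higher and 71 lower, the smallest called rise being 0.61 and the smallest called fall -0.57 on the log2 scale. The genes tested held 26934672 and 25121827 uniquely mapped reads in wei8tar2_MS, 31807206 and 18138087 in Col_Kyn, and 26740665 and 28233782 in Col_MS. The unadjusted p was under 0.05 for 1998 genes that were higher (9.37%) and 2400 that were lower (11.3%). Of the 21326 fold changes 9975 were positive and 11351 negative, beside which the counts of signs below are to be read. DESeq2 called 676 of 22123 genes higher (3.06%) and 637 lower (2.88%), all 230 among them, and limma-voom called 216 (1.01%), 202 of them among the 230. The libraries of the 2 groups did not overlap for 5664 genes that were higher (26.6%) and 6183 that were lower (29.0%), so that non-overlap alone was common. The 230 genes were spread over the 5 chromosomes at between 0.93% and 1.18% of the genes tested on each. The kit did not mark strand as far as the library protocol says, and 46 of the 230 overlap an annotated gene on the opposite strand. Reads within the shared bases cannot be told apart. The stretch shared was, for example, 11 bases for ASN1 and 53 for BGAL9, but 1446 for MRD1 and HEI10.

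**Figure D1:**
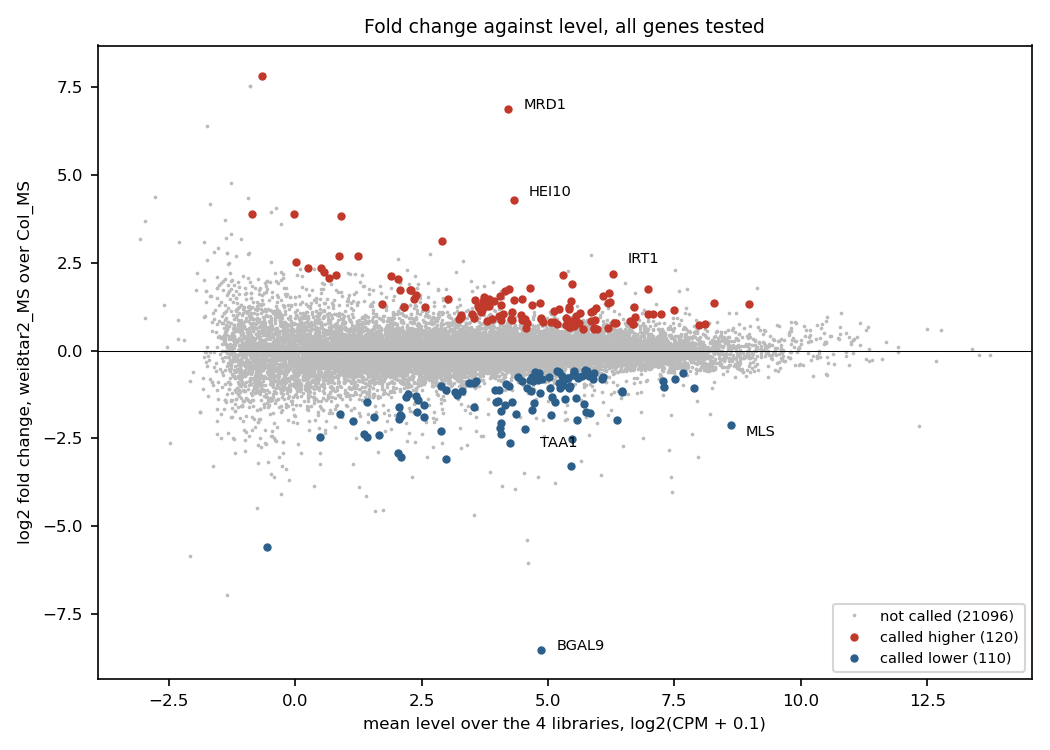
Each point is 1 of the 21326 genes tested, with its mean level over the 4 libraries of wei8tar2_MS and Col_MS on the horizontal axis (log2 of CPM plus 0.1) and its log2 fold change, wei8tar2_MS over Col_MS, on the vertical axis. The 120 genes called higher (red) and the 110 called lower (blue) lie on both sides of the line at 0, with BGAL9 lowest and MRD1 and HEI10 highest among the well-read genes.

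The libraries were not equally close. Within wei8tar2_MS 255 genes lay more than 2-fold apart between the replicates, against 986 within Col_Kyn and 1090 within Col_MS. The Col_MS libraries differed from each other in both directions. PXMT1, a methyltransferase gene, had 618 CPM in replicate 1 against 21.9 CPM in replicate 2, and CYP81F2, an enzyme of indole glucosinolate metabolism, had 126 against 4.85 CPM. PRP1, a wall protein of root hairs, had 19.5 CPM in replicate 1 against 36.6 CPM in replicate 2. With 2 libraries it cannot be told which of them was unusual. Without Col_MS replicate 1 the count of calls was 52, of which 34 were among the 230, and without Col_MS replicate 2 it was 1719, among them all 230. Without wei8tar2_MS replicate 1 the calls numbered 5 (MRD1, HEI10, TAA1, BGAL9 and AT4G20690) and without replicate 2 they numbered 4 (MRD1, HEI10, TAA1 and BGAL9). All other calls below were therefore lost without either wei8tar2_MS library. Of the 3 green tissue markers, PORA, the enzyme that etiolated seedlings hold for greening, had 1152 and 1276 CPM in wei8tar2_MS and 1313 and 1408 CPM in Col_MS. RBCS1A, a Rubisco subunit gene, had 3832 and 3825 CPM in wei8tar2_MS and 3770 and 4060 CPM in Col_MS. LHCB1.1, a light-harvesting gene, had 203 and 220 CPM in wei8tar2_MS and 114 and 146 CPM in Col_MS. No marker of roots, endodermis, xylem, shoot epidermis, shoot meristem, seed remains or green tissue was at 0 in every library, although WUS and CLV3 of the shoot meristem rested on few reads.

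Besides TAA1, 5 loci differed in the line from both wild-type groups. They were the other genes that passed the test against Col_Kyn, where 6 of 21326 genes were called (0.0281%) and 921 had an unadjusted p under 0.05. BGAL9 (AT2G32810, reverse strand, chr2:13919127-13925421), a beta-galactosidase gene, had 0.110 and 0.197 CPM in wei8tar2_MS, or 3 and 5 reads, 56.7 and 61.6 CPM in Col_Kyn and 57.9 and 58.5 CPM in Col_MS. It fell by 8.53 ± 0.20 on the log2 scale (adjusted p = 6.21e-06). Reads were close to absent in both libraries of the line and level in the other 4. AT4G20690, a protein-coding gene annotated as uncharacterized, had 1.80 and 1.46 CPM in wei8tar2_MS, 13.5 and 14.5 CPM in Col_Kyn and 15.3 and 12.7 CPM in Col_MS, and fell by 3.10 ± 0.19 (adjusted p = 0.00149). AT5G14840, a transcribed pseudogene, had 33.1 and 33.8 CPM in wei8tar2_MS, 135 and 141 CPM in Col_Kyn and 142 and 120 CPM in Col_MS, and fell by 1.97 ± 0.12 (adjusted p = 0.00154).

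The pair MRD1 and HEI10 went the other way. MRD1 (AT1G53480, reverse strand, chr1:19963047-19964712), named for its lower expression in the methionine mutant mto1, had 37.7 and 35.6 CPM in wei8tar2_MS, 0.0961 and 0.114 CPM in Col_Kyn and 0.509 and 0.105 CPM in Col_MS. It rose by 6.89 ± 0.36 (adjusted p = 0.000724), a value of 8.38 without Col_MS replicate 1 and 6.18 without Col_MS replicate 2. HEI10 (AT1G53490, forward strand, chr1:19963267-19966952), a RING-domain protein known from meiotic crossovers, had 38.7 and 37.0 CPM in wei8tar2_MS, 0.929 and 1.14 CPM in Col_Kyn and 2.22 and 1.65 CPM in Col_MS, and rose by 4.29 ± 0.18 (adjusted p = 0.000264). The annotated spans of MRD1 and HEI10 share 1446 bases on opposite strands, so that reads of this overlap cannot be assigned between them. Among the 5 annotated genes on either side of TAA1, TAR2, BGAL9, HEI10, AT4G20690 and AT5G14840, no further tested gene was called; around AT4G20690 no other gene had enough reads to be tested.

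**Figure D2:**
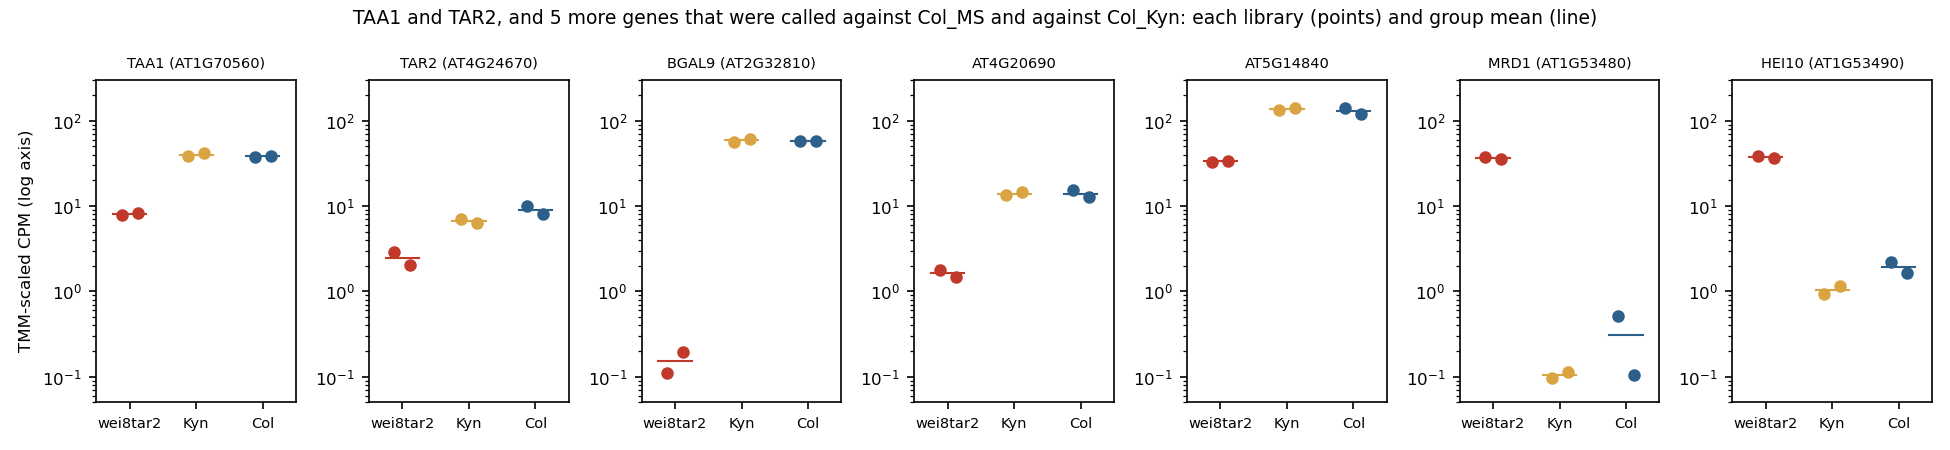
CPM scaled by TMM factors on a log axis for TAA1, TAR2, BGAL9, AT4G20690, AT5G14840, MRD1 and HEI10, in wei8tar2_MS, Col_Kyn and Col_MS from left to right; points are the 2 libraries and lines the group means. BGAL9 lies at 0.110 and 0.197 CPM in wei8tar2_MS against 57.9 and 58.5 CPM in Col_MS, and HEI10 at 38.7 and 37.0 CPM against 2.22 and 1.65 CPM.

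**Figure D3:**
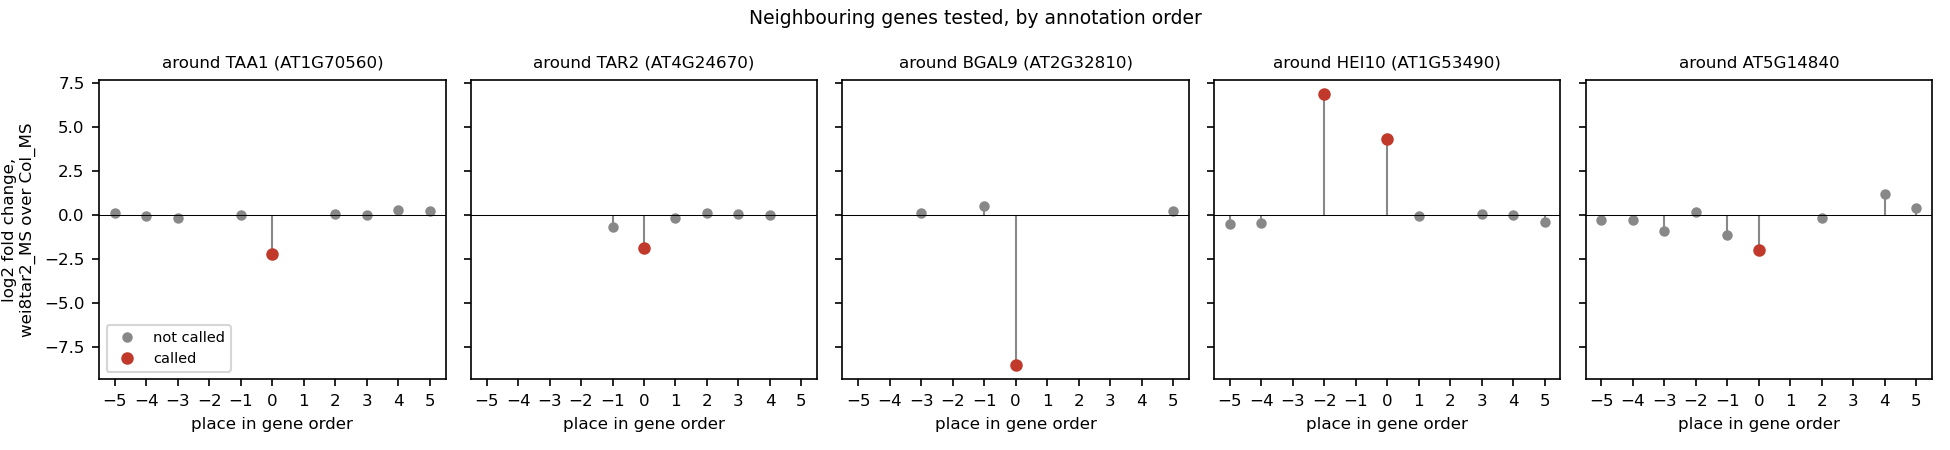
Log2 fold change, wei8tar2_MS over Col_MS, of the tested genes among the 5 annotated genes on either side of TAA1, TAR2, BGAL9, HEI10 and AT5G14840, by their place in the gene order. Called genes are red; in the panel of HEI10 the called neighbour at place -2 is MRD1, at 6.89.

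Of genes that act after TAA1 in auxin metabolism, a pair at the step of conjugation fell. WES1 (AT4G27260), a GH3 gene for an IAA-amido synthetase, had 52.1 and 56.1 CPM in wei8tar2_MS, 57.9 and 45.7 CPM in Col_Kyn and 140 and 106 CPM in Col_MS. DFL1 (AT5G54510), another GH3 gene, had 16.9 and 17.9 CPM in wei8tar2_MS, 19.5 and 15.8 CPM in Col_Kyn and 43.0 and 37.1 CPM in Col_MS. Both fell, WES1 by 1.19 ± 0.17 (adjusted p = 0.0405) and DFL1 by 1.20 ± 0.14 (adjusted p = 0.0252), and neither call held once Col_MS replicate 1 was left out (adjusted p = 0.0753 for WES1 and 0.0551 for DFL1). They were the 2 called among 13 tested genes of auxin conjugation and inactivation, whose median was -0.14, against -0.02 over all genes tested. DESeq2 called 0 of this list higher and 3 lower, and 2 higher and 6 lower had an unadjusted p under 0.05. Its log2 fold changes lay between -2.44 and 0.34. Of the 15 tested genes of IAA biosynthesis edgeR and limma-voom called 2 lower, TAA1 and TAR2, and 0 higher, while DESeq2 called 2 lower and 2 higher. The unadjusted p was under 0.05 for 4 that were higher, and the median was 0.34 with 12 positive values. YUC8, a flavin monooxygenase of the second step, had 16.1 and 15.4 CPM in wei8tar2_MS and 8.44 and 8.32 CPM in Col_MS (log2 fold change 0.91 ± 0.19, adjusted p = 0.0702).

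The promoter of WES1 is shown because it holds TGTCTC, the core of the auxin response element, close to the start of a called GH3 gene. The sequence was cut from the RefSeq genome TAIR10.1, forward strand, chr4:13653509-13653568; capitals mark the motif, which begins 47 bases before the annotated start.
WES1: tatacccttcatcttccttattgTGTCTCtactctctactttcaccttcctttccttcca
TGTCTC, read on both strands in the 250 bases before the start, was found in 11.9% of 118 promoters of genes called higher, 10.1% of 109 of genes called lower and 10.7% of 21173 of all genes tested. In 100 bases the shares were 5.93%, 3.67% and 4.2%, and they were not tested against each other.

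Apart from the GH3 genes, of which WES1 and DFL1 were called lower, the lists of early auxin-responsive genes held no call by edgeR. Of 26 tested Aux/IAA genes, the repressors of auxin response, edgeR called 0, with 3 lower and 0 higher at an unadjusted p under 0.05, and DESeq2 and limma-voom called 0. IAA2, a member induced by auxin, had 82.5 and 88.7 CPM in wei8tar2_MS and 114 and 113 CPM in Col_MS (-0.41 ± 0.14, adjusted p = 0.160). The Aux/IAA median was -0.08, but -0.24 without Col_MS replicate 1 and 0.07 without replicate 2, so that its sign turned with 1 wild-type library. Of 70 tested SAUR genes, small auxin-induced transcripts, edgeR and limma-voom called 0, DESeq2 1 higher and 2 lower, and the unadjusted p was under 0.05 for 5 higher and 4 lower; the median of 0.06 became -0.11 without Col_MS replicate 1. Of 8 other auxin-responsive genes edgeR and limma-voom called 0, DESeq2 1 lower, with 4 lower at an unadjusted p under 0.05. HAT2, an auxin-induced homeodomain gene, had 40.9 and 39.2 CPM in wei8tar2_MS and 52.2 and 61.1 CPM in Col_MS (-0.50 ± 0.11, adjusted p = 0.0762). LBD16, which acts in lateral root founding, had 6.87 and 6.43 CPM in wei8tar2_MS and 12.9 and 11.3 CPM in Col_MS (-0.86 ± 0.25, adjusted p = 0.117). Of 14 auxin transport genes edgeR, DESeq2 and limma-voom called 0, with 1 higher and 2 lower at an unadjusted p under 0.05 and a median of -0.06.

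The values of genes for tryptophan itself and for indolic defence compounds depended on Col_MS replicate 1. The fold changes of all 11 tested tryptophan biosynthesis genes were negative (median -0.61), yet edgeR, DESeq2 and limma-voom called 0 of them and 6 had an unadjusted p under 0.05. Between the Col_MS libraries, replicate 1 exceeded replicate 2 by a median log2 difference of 0.79 over this list, and without replicate 1 the list median came to -0.23. PAI1, an enzyme of the middle of the pathway, had 10.9 and 11.6 CPM in wei8tar2_MS and 19.0 and 15.4 CPM in Col_MS (-0.61 ± 0.15, adjusted p = 0.0910). The 15 genes of indole glucosinolates and camalexin had a median of -0.50 but of 0.10 without Col_MS replicate 1; edgeR and limma-voom called 0, DESeq2 1 higher and 1 lower, and 3 higher and 6 lower had an unadjusted p under 0.05. CYP79B2, which turns tryptophan into indole-3-acetaldoxime, had 34.6 and 36.8 CPM in wei8tar2_MS and 181 and 50.2 CPM in Col_MS (-1.70 ± 0.49, adjusted p = 0.119).

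Of 19 tested genes of cytokinin metabolism, 2 rose, both for enzymes that form the active hormone. CYP735A2 (AT1G67110), a hydroxylase that makes trans-zeatin type cytokinins, had 29.4 and 27.8 CPM in wei8tar2_MS, 21.5 and 21.8 CPM in Col_Kyn and 8.62 and 8.50 CPM in Col_MS. The 3 groups did not overlap, and the replicates of each lay close together. It rose by 1.74 ± 0.11 (adjusted p = 0.00182), a call that held without Col_MS replicate 1 (adjusted p = 0.00947). LOG7 (AT5G06300), which releases the active cytokinin base, had 18.9 and 16.3 CPM in wei8tar2_MS, 9.90 and 11.3 CPM in Col_Kyn and 10.3 and 9.27 CPM in Col_MS. LOG7 rose by 0.85 ± 0.15 (adjusted p = 0.0475; 0.0928 without Col_MS replicate 1). DESeq2 called 6 of the list higher and 0 lower, 13 values were positive and 6 negative, and the median was 0.17. The unadjusted p was under 0.05 for 7 higher and 1 lower, and values lay between -1.95 and 2.00. Beside genes of synthesis the list holds the cytokinin oxidases CKX1 to CKX7 and the export gene ABCG14. Its counts and median therefore do not describe synthesis alone. Of 8 type-A response regulators, which are switched on by cytokinin and damp its signal, edgeR and limma-voom called 0, DESeq2 2 higher, and 4 were higher at an unadjusted p under 0.05; the median was 0.61. ARR4 had 89.9 and 78.9 CPM in wei8tar2_MS and 48.4 and 54.3 CPM in Col_MS (0.72 ± 0.15, adjusted p = 0.0697), and ARR7 had 9.36 and 8.24 CPM in wei8tar2_MS and 4.15 and 5.65 CPM in Col_MS (0.84 ± 0.20, adjusted p = 0.0828).

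In the lists of ethylene, gibberellin, brassinosteroid and jasmonate genes edgeR called 1 member. ACS9 (AT3G49700), an ACC synthase of ethylene production, had 1 and 0 reads in wei8tar2_MS, 5 and 6 in Col_Kyn and 26 and 38 in Col_MS, which is 0.0367 and 0 CPM against 0.946 and 1.33 CPM in Col_MS, and was called lower (adjusted p = 0.0419; 0.0756 without Col_MS replicate 1). With 1 read in the line no fold change is given. It was the single call among 11 tested ethylene biosynthesis genes, and of 14 genes of ethylene perception and response edgeR, DESeq2 and limma-voom called 0, with 4 lower at an unadjusted p under 0.05. HLS1, which is needed for the apical hook, had 8.45 and 7.22 CPM in wei8tar2_MS and 10.7 and 11.7 CPM in Col_MS (-0.52 ± 0.19, adjusted p = 0.195). Of 17 gibberellin and brassinosteroid genes edgeR and limma-voom called 0, DESeq2 1 higher and 1 lower, and 4 higher and 2 lower had an unadjusted p under 0.05. The 2 members with the lowest p were GA20OX2 and GA2OX2. GA20OX2, which makes gibberellins, had 2.86 and 2.76 CPM in wei8tar2_MS and 7.79 and 6.50 CPM in Col_MS (-1.34 ± 0.25, adjusted p = 0.0619), and GA2OX2, which inactivates them, had 6.46 and 5.28 CPM in wei8tar2_MS and 1.97 and 2.92 CPM in Col_MS (1.26 ± 0.27, adjusted p = 0.0702). Outside the lists, GA2OX7 (AT1G50960), a further gibberellin 2-oxidase, had 2.61 and 3.39 CPM in wei8tar2_MS, 0.961 and 1.43 CPM in Col_Kyn and 0.255 and 0.667 CPM in Col_MS. It rose by 2.68 ± 0.46 (adjusted p = 0.0475), a value of 3.56 without Col_MS replicate 2, and was not called without Col_MS replicate 1. Of the 14 tested members of the jasmonate list edgeR, DESeq2 and limma-voom called 0, and 0 had an unadjusted p under 0.05. That list does not hold the oxygenase genes AT2G38240 and AT5G05600, which edgeR called higher. They rose by 3.89 (adjusted p = 0.0419) and 1.70 (adjusted p = 0.0155). In bulk seedlings, fewer cells of a type and less RNA per cell cannot be told apart, which holds for all tissue lists that follow.

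Of root hair and root tip genes, 1 fell in the line. PRP1 (AT1G54970), a proline-rich wall protein of root hairs, had 5.10 and 5.76 CPM in wei8tar2_MS, 5.45 and 5.84 CPM in Col_Kyn and 19.5 and 36.6 CPM in Col_MS, and fell by 2.37 ± 0.29 (adjusted p = 0.0301; 0.00223 without Col_MS replicate 1). It was the 1 called of 15 tested root hair and patterning genes, of which 13 had negative values; the median was -0.41, with -0.66 without Col_MS replicate 1 and -0.18 without replicate 2. The summed level of the root hair markers was 44.7 and 46.0 CPM in wei8tar2_MS, 44.4 and 36.0 CPM in Col_Kyn and 53.8 and 78.3 CPM in Col_MS. Of 13 genes of the root stem cell niche and root cap edgeR and limma-voom called 0, DESeq2 1 higher and 1 lower, and 3 higher and 5 lower had an unadjusted p under 0.05. PLT1, a master regulator of the niche, had 0.220 and 0.158 CPM in wei8tar2_MS and 1.56 and 0.702 CPM in Col_MS (-2.55 ± 0.59, adjusted p = 0.0785), and SMB, a root cap regulator, had 0.477 and 0.276 CPM in wei8tar2_MS and 2.47 and 1.23 CPM in Col_MS (-2.27 ± 0.50, adjusted p = 0.0746). Members of this list went both ways, with 5 positive and 8 negative values. WOX5, another niche gene at a low level, had 1.43 and 2.41 CPM in wei8tar2_MS and 0.437 and 0.948 CPM in Col_MS. The summed niche and cap markers were 92.3 and 86.6 CPM in wei8tar2_MS against 90.7 and 76.9 CPM in Col_MS, a sum that its most abundant members set.

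Of 9 genes of root beta-glucosidases and of the ER body, a store of such enzymes, 3 fell. BGLU35 (AT1G51470) had 21.0 and 16.5 CPM in wei8tar2_MS, 14.0 and 11.7 CPM in Col_Kyn and 63.0 and 40.6 CPM in Col_MS, and fell by 1.47 ± 0.22 (adjusted p = 0.0419). BGLU34 (AT1G47600), its close copy and like it a root myrosinase, which splits glucosinolates, had 20.5 and 18.1 CPM in wei8tar2_MS and 59.0 and 37.8 CPM in Col_MS, and fell by 1.33 ± 0.21 (adjusted p = 0.0440); reads of such copies are uncertain. BGLU21 (AT1G66270) had 140 and 125 CPM in wei8tar2_MS, 76.9 and 92.7 CPM in Col_Kyn and 234 and 233 CPM in Col_MS, and fell by 0.82 ± 0.13 (adjusted p = 0.0440). PYK10, the main protein of the ER body, had 10300 and 11281 CPM in wei8tar2_MS and 9524 and 11544 CPM in Col_MS (0.03 ± 0.16, adjusted p = 0.929). The 3 calls were lost without Col_MS replicate 1 (adjusted p between 0.0637 and 0.0863).

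Of endodermal genes, which build the barriers around the root vasculature, 1 rose and nearly all others had positive values. FAR5 (AT3G44550), a fatty acid reductase of suberin, had 2.24 and 2.33 CPM in wei8tar2_MS, 2.50 and 3.20 CPM in Col_Kyn and 0.400 and 0.562 CPM in Col_MS. It rose by 2.23 ± 0.33 (adjusted p = 0.0407; 0.0939 without Col_MS replicate 1) and was the 1 called of 13 suberin genes, of which 12 were positive, with a median of 0.67. All 9 Casparian strip genes were positive, with a median of 0.47 (0.27 without Col_MS replicate 1), but edgeR and limma-voom called 0, DESeq2 3 higher, and 8 had an unadjusted p under 0.05. CASP1, a scaffold of the strip, had 181 and 168 CPM in wei8tar2_MS, 178 and 185 CPM in Col_Kyn and 116 and 129 CPM in Col_MS (0.52 ± 0.11, adjusted p = 0.0734). The summed endodermis markers were 322 and 298 CPM in wei8tar2_MS, 317 and 317 CPM in Col_Kyn and 207 and 235 CPM in Col_MS, whose libraries did not overlap with those of the line; the part of this tissue in the gene values was not tested. Of 15 xylem genes edgeR, DESeq2 and limma-voom called 0, with 2 higher at an unadjusted p under 0.05 and summed markers of 189 and 182 CPM in wei8tar2_MS against 182 and 177 CPM in Col_MS. THAS1 (AT5G48010), the first enzyme of the root triterpene thalianol, had 122 and 132 CPM in wei8tar2_MS, 150 and 173 CPM in Col_Kyn and 67.6 and 75.0 CPM in Col_MS, and rose by 0.83 ± 0.12 (adjusted p = 0.0407; 0.0868 without Col_MS replicate 1). Of 7 genes of root triterpene clusters edgeR and limma-voom called 1 higher and DESeq2 4; all 7 were positive and 6 were higher at an unadjusted p under 0.05.

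XTH9 (AT4G03210), a xyloglucan endotransglucosylase that remodels the wall, had 51.0 and 57.3 CPM in wei8tar2_MS, 74.9 and 86.7 CPM in Col_Kyn and 114 and 129 CPM in Col_MS, and fell by 1.17 ± 0.13 (adjusted p = 0.0209; 0.0264 without Col_MS replicate 1). It was the 1 called of 48 expansin and xyloglucan enzyme genes, whose median was -0.01, or 0.23 without Col_MS replicate 2, and was also positive with RLE scaling, by DESeq2 and limma-voom, with only the 4 libraries compared and without wei8tar2_MS replicate 1; DESeq2 called 4 higher and 10 lower. Of 8 genes of primary wall cellulose synthesis edgeR, DESeq2 and limma-voom called 0, with 1 higher at an unadjusted p under 0.05. Of 30 cell cycle and DNA replication genes 26 were negative, with a median of -0.37, while edgeR and limma-voom called 0, DESeq2 1 lower, and 2 higher and 11 lower had an unadjusted p under 0.05. CYCB1;1, a mitotic cyclin, had 2.86 and 3.12 CPM in wei8tar2_MS and 5.39 and 6.18 CPM in Col_MS (-0.95 ± 0.20, adjusted p = 0.0699).

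Nucleolar genes that help to make ribosomes fell in 3 cases, and the other members had negative values. FIB2 (AT4G25630), a fibrillarin that methylates ribosomal RNA, had 25.7 and 26.7 CPM in wei8tar2_MS, 32.9 and 26.2 CPM in Col_Kyn and 54.3 and 50.0 CPM in Col_MS, and fell by 0.99 ± 0.13 (adjusted p = 0.0393). NAP57 (AT3G57150), the pseudouridine synthase of the same machinery, had 47.1 and 49.7 CPM in wei8tar2_MS, 55.1 and 47.4 CPM in Col_Kyn and 95.3 and 76.1 CPM in Col_MS, and fell by 0.82 ± 0.14 (adjusted p = 0.0475). Its partner protein of the Gar1 type, AT3G03920, had 30.2 and 27.6 CPM in wei8tar2_MS, 33.8 and 28.6 CPM in Col_Kyn and 53.1 and 49.5 CPM in Col_MS, and fell by 0.82 ± 0.12 (adjusted p = 0.0407). These were 3 called of 12, all 12 were negative and 11 had an unadjusted p under 0.05, DESeq2 called 9 lower, and the median of -0.67 was -0.43 without Col_MS replicate 1. Without that library the 3 calls were lost (adjusted p between 0.0755 and 0.0939).

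**Figure D4:**
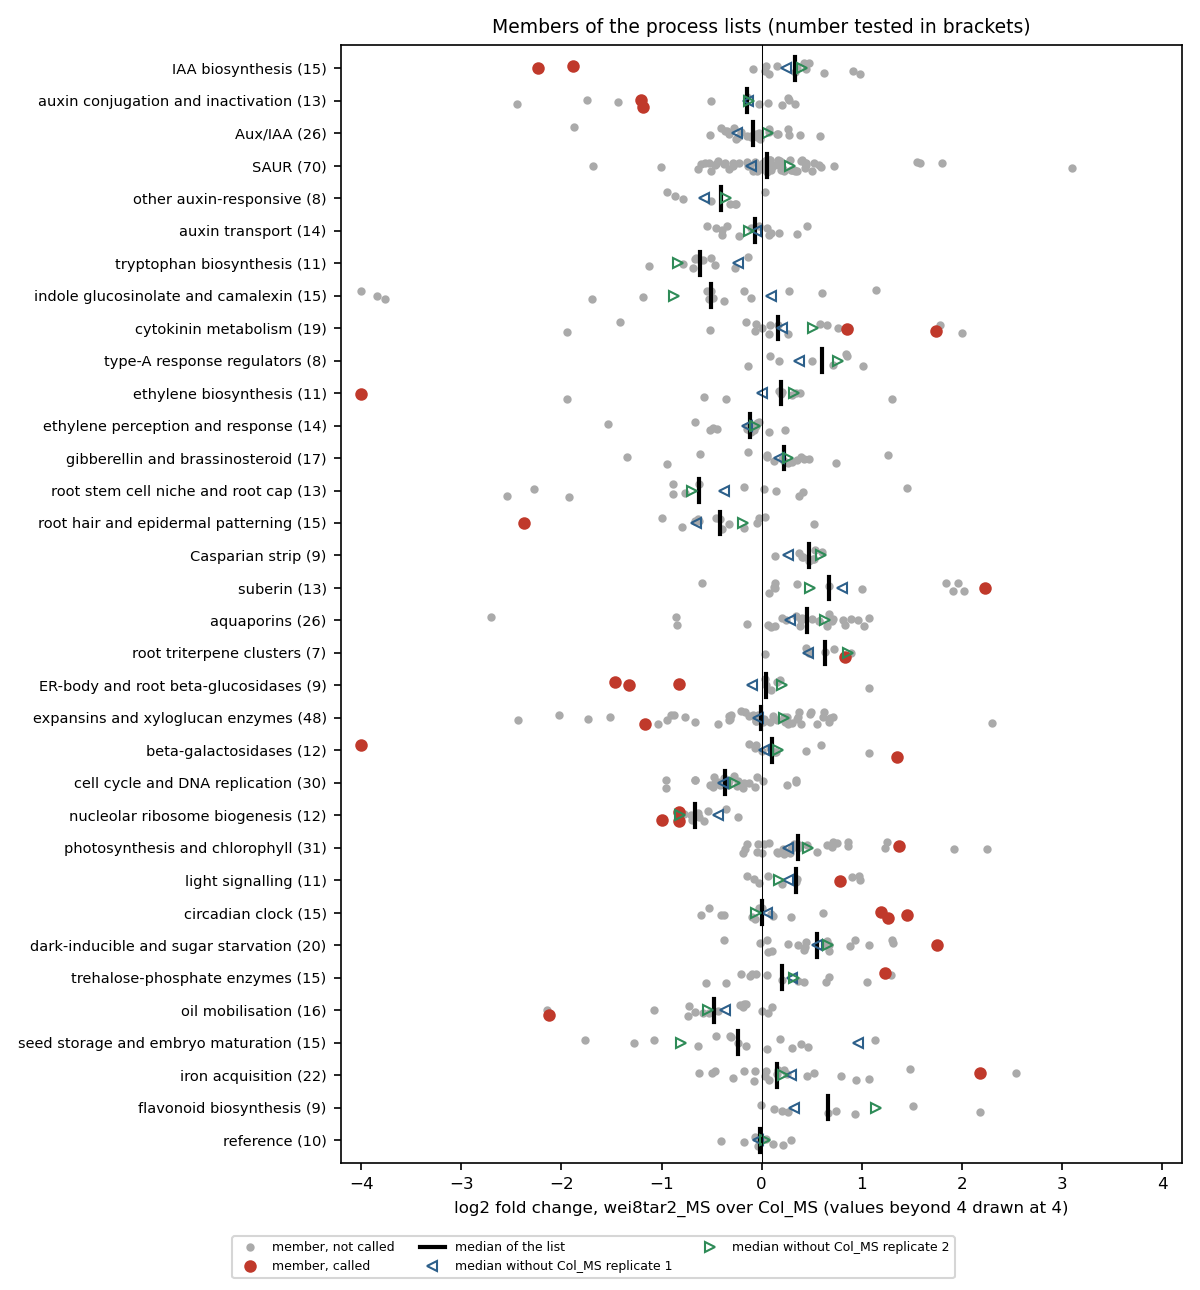
Log2 fold changes, wei8tar2_MS over Col_MS, of the members of 34 process lists (grey, not called; red, called), with the median of each list (black bar) and the medians without Col_MS replicate 1 or replicate 2 (triangles); values beyond 4 are drawn at 4. Nucleolar ribosome biogenesis lies wholly below 0 and Casparian strip wholly above, while the medians of seed storage and of indole glucosinolate and camalexin genes change side without Col_MS replicate 1.

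In the lists of reserve and sugar metabolism edgeR called 1 gene of oil mobilisation lower, and 1 dark-inducible and 1 trehalose-phosphate gene higher. MLS (AT5G03860), the malate synthase of the glyoxylate cycle, by which seedlings turn stored oil into sugar, had 127 and 166 CPM in wei8tar2_MS, 367 and 193 CPM in Col_Kyn and 714 and 563 CPM in Col_MS, and fell by 2.12 ± 0.30 (adjusted p = 0.0407; 0.0856 without Col_MS replicate 1). ICL, the isocitrate lyase of the same cycle, had 1765 and 2066 CPM in wei8tar2_MS, 6515 and 2724 CPM in Col_Kyn and 10628 and 6327 CPM in Col_MS (-2.15 ± 0.42, adjusted p = 0.0649). MLS was the 1 called of 16 oil mobilisation genes, of which 13 were negative and DESeq2 called 9 lower; the median was -0.48. Of 15 seed storage genes edgeR and limma-voom called 0, DESeq2 1 lower, with 1 lower at an unadjusted p under 0.05, and the median of -0.23 was 0.96 without Col_MS replicate 1, in which the list was 1.68 higher than in replicate 2. ASN1 (AT3G47340), a dark-inducible gene that makes asparagine, had 199 and 191 CPM in wei8tar2_MS, 119 and 187 CPM in Col_Kyn and 50.1 and 65.7 CPM in Col_MS, and rose by 1.75 ± 0.23 (adjusted p = 0.0360; 0.0828 without Col_MS replicate 1). It was the 1 called of 20 dark-inducible and sugar starvation genes, of which 18 were positive, 14 were higher at an unadjusted p under 0.05 and DESeq2 called 10 higher; the median was 0.55. TPPF (AT4G12430), a trehalose-phosphate phosphatase, had 6.46 and 5.80 CPM in wei8tar2_MS and 2.69 and 2.53 CPM in Col_MS, and rose by 1.23 ± 0.18 (adjusted p = 0.0407), but its counts equal those of AT4G12432 in every library; the call was lost without Col_MS replicate 1 (adjusted p = 0.0863). BGAL2 (AT3G52840), a beta-galactosidase, had 108 and 102 CPM in wei8tar2_MS, 107 and 113 CPM in Col_Kyn and 38.5 and 43.6 CPM in Col_MS, and rose by 1.36 ± 0.11 (adjusted p = 0.00794; 0.0159 without Col_MS replicate 1), so that with BGAL9 the family of 12 held 1 call in each direction.

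Of 15 tested circadian clock genes, 3 rose in these seedlings, which had been in darkness for 3 days. CCA1 (AT2G46830), a core repressor of the clock, had 19.3 and 22.0 CPM in wei8tar2_MS, 15.5 and 16.8 CPM in Col_Kyn and 7.86 and 7.20 CPM in Col_MS, and rose by 1.45 ± 0.14 (adjusted p = 0.0117; 0.0264 without Col_MS replicate 1). LHY (AT1G01060), its close homologue, had 57.4 and 60.6 CPM in wei8tar2_MS, 43.3 and 53.5 CPM in Col_Kyn and 25.0 and 26.6 CPM in Col_MS, and rose by 1.19 ± 0.13 (adjusted p = 0.0175; 0.0567 without Col_MS replicate 1). RVE1 (AT5G17300), a related factor known to tie the clock to auxin synthesis, had 17.8 and 16.7 CPM in wei8tar2_MS, 10.1 and 14.2 CPM in Col_Kyn and 7.71 and 6.67 CPM in Col_MS, and rose by 1.26 ± 0.19 (adjusted p = 0.0407; 0.0828 without Col_MS replicate 1). Of the 15 values 8 were positive and 7 negative, with a median of 0.01. That median was negative with library totals alone, without wei8tar2_MS replicate 1 (-0.09) and without Col_MS replicate 2 (-0.06). The labels give no time of day of harvest.

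The promoters of these 3 genes and of ASN1 and BT5 are shown because each holds at least 1 of the searched motifs and its gene rose. They were cut from the RefSeq genome TAIR10.1; capitals mark CACGTG (the G-box, bound by light- and clock-related factors) in CCA1 (chr2:19245371-19245430, forward strand), LHY (chr1:37923-37981, reverse strand), RVE1 (chr5:5693073-5693132, reverse strand) and ASN1 (chr3:17441512-17441611, reverse strand), and TATCCA, a sugar-response element, in ASN1 and, on the opposite strand, in BT5 (chr4:17672518-17672593, reverse strand). CACGTG begins 193 bases before the start of CCA1, 80 before that of LHY, 111 before that of RVE1 and 167 before that of ASN1, whose TATCCA lies 101 bases before the start.
CCA1: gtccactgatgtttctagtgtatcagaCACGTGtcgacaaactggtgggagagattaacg
LHY: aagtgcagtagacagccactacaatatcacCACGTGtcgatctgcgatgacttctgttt
RVE1: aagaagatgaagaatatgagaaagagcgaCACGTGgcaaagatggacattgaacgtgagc
ASN1: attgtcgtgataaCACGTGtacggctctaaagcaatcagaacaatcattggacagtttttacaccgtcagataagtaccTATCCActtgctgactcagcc
BT5: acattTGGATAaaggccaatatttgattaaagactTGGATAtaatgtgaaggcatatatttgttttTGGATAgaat
Over 250 bases and both strands, CACGTG was found in 8.47% of the promoters of genes called higher, 5.5% of those called lower and 7.22% of all tested, TATCCA in 21.2%, 16.5% and 14.0%, and the evening element AAATATCT in 1.69%, 3.67% and 4.79%. In the 100 bases before the start the shares were 2.54%, 4.59% and 4.15% for CACGTG, 9.32%, 9.17% and 5.72% for TATCCA and 0.847%, 0.917% and 2.01% for AAATATCT, in the same order of gene sets, so that the order of the shares for CACGTG depended on the window. None of these shares was tested against another, and a match is a description and not a binding site.

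Of the lists of light signalling and of photosynthesis genes, edgeR called 1 member each higher in these dark-grown seedlings. HFR1 (AT1G02340), a bHLH factor of light signalling that also marks shade, had 64.9 and 58.8 CPM in wei8tar2_MS, 69.4 and 63.6 CPM in Col_Kyn and 32.3 and 39.3 CPM in Col_MS, and rose by 0.79 ± 0.13 (adjusted p = 0.0461; 0.0939 without Col_MS replicate 1). It was the 1 called of 11 light signalling genes, of which 8 were positive and DESeq2 called 4 higher; the median was 0.35. ELIP2 (AT4G14690), an early light-induced protein that guards chlorophyll, had 97.6 and 119 CPM in wei8tar2_MS, 105 and 101 CPM in Col_Kyn and 35.5 and 48.0 CPM in Col_MS, and rose by 1.37 ± 0.17 (adjusted p = 0.0301; 0.0534 without Col_MS replicate 1). Of the 31 photosynthesis and chlorophyll genes edgeR called 1 higher, limma-voom 2 and DESeq2 3; 26 were positive and the median was 0.36. The summed green tissue markers, 5187 and 5320 CPM in wei8tar2_MS and 5197 and 5613 CPM in Col_MS, overlapped, a sum that RBCS1A, its most abundant member, set. Of the other markers, LHCB1.1 stood higher in both wei8tar2_MS libraries than in either Col_MS library, and PORA stood lower.

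Iron uptake gave 1 of the largest rises. IRT1 (AT4G19690), the main root transporter of ferrous iron, had 121 and 134 CPM in wei8tar2_MS, 98.6 and 52.2 CPM in Col_Kyn and 33.1 and 23.1 CPM in Col_MS, and rose by 2.18 ± 0.30 (adjusted p = 0.0405; 0.0746 without Col_MS replicate 1). Of 22 iron genes edgeR and limma-voom called IRT1 and no other, DESeq2 called 2 higher, and 15 were positive; FRU, which switches IRT1 on, had 11.2 and 8.52 CPM in wei8tar2_MS and 4.84 and 6.53 CPM in Col_MS (0.79 ± 0.22, adjusted p = 0.109). MTPA2 (AT3G58810), a vacuolar zinc transporter of the root, had 20.7 and 17.4 CPM in wei8tar2_MS and 8.01 and 6.29 CPM in Col_MS, and rose by 1.41 ± 0.23 (adjusted p = 0.0461; 0.0857 without Col_MS replicate 1). Of 26 aquaporins 22 were positive with a median of 0.45, while edgeR and limma-voom called 0, DESeq2 6 higher and 2 lower, and 12 higher and 3 lower had an unadjusted p under 0.05. Of 8 nitrate genes edgeR and limma-voom called 0, DESeq2 3 higher and 1 lower, and 3 higher and 2 lower had an unadjusted p under 0.05.

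**Figure D5:**
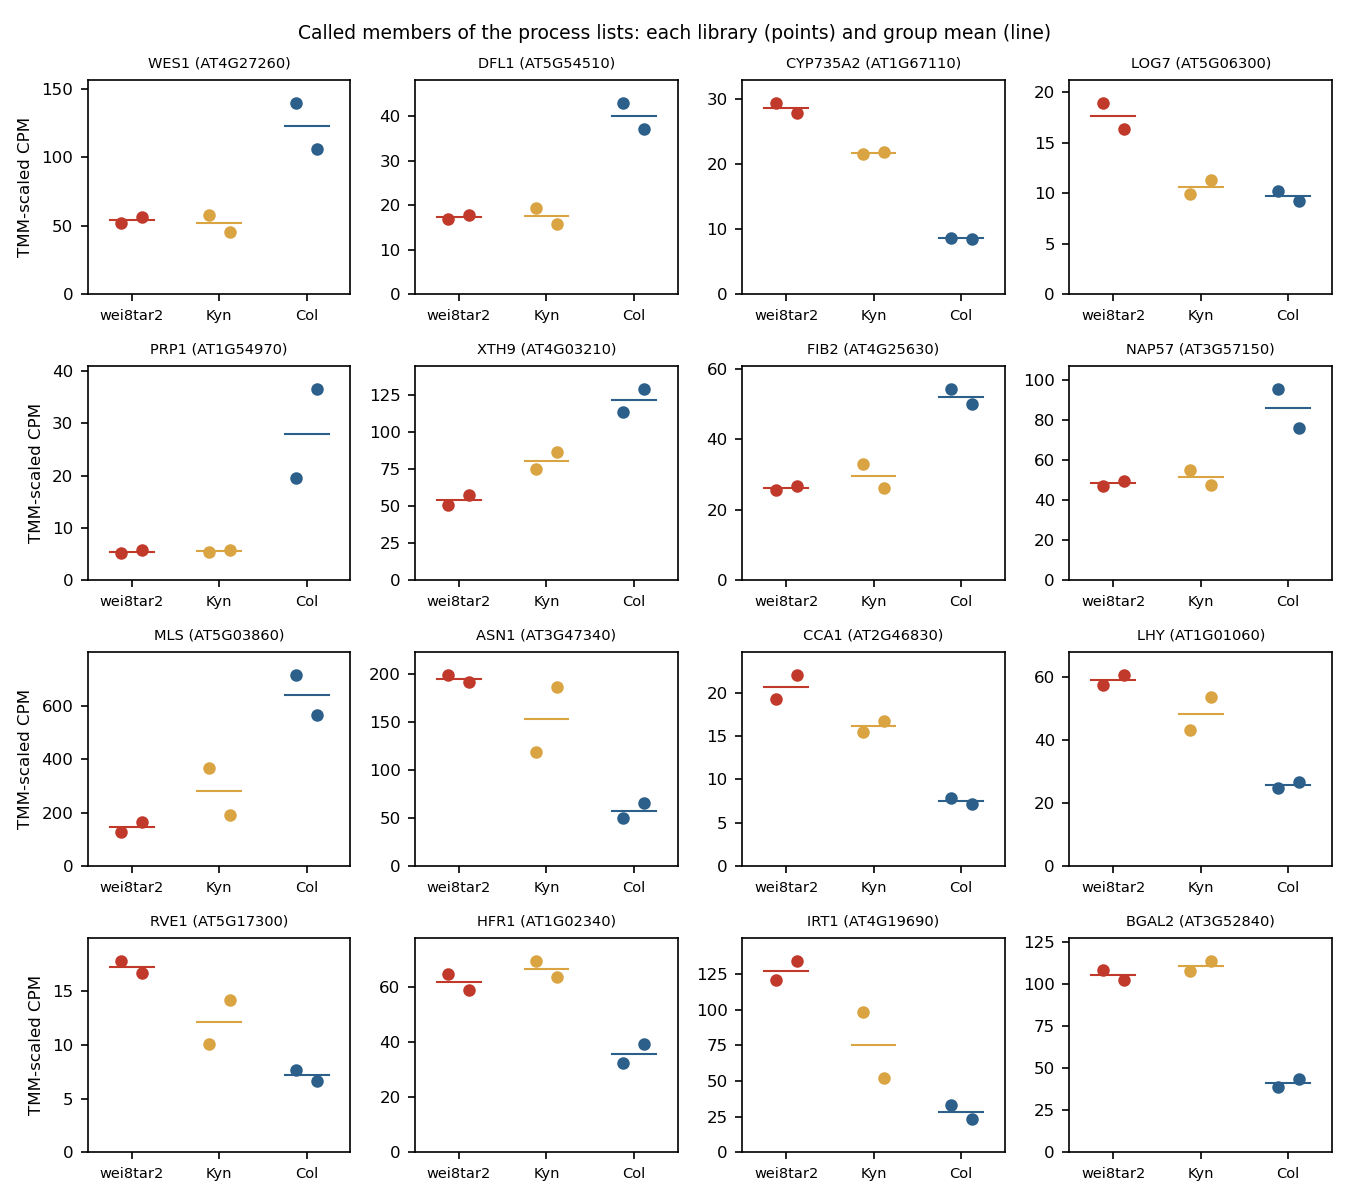
CPM scaled by TMM factors in each library (points) and as group means (lines) for 16 called members of the process lists, in wei8tar2_MS, Col_Kyn and Col_MS from left to right; each axis starts at 0. The 2 libraries of wei8tar2_MS lie on 1 side of both Col_MS libraries in each panel, for example 121 and 134 against 33.1 and 23.1 CPM for IRT1. This was so for all 230 called genes, so the panels are no separate support for the calls.

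Further rises among the named genes, which belong to no list, were of several kinds. LTI30, a dehydrin induced by cold and drought, had 55.7 and 71.8 CPM in wei8tar2_MS, 8.46 and 17.7 CPM in Col_Kyn and 10.5 and 18.1 CPM in Col_MS, and rose by 2.15 ± 0.36 (adjusted p = 0.0475). It stood high in the line alone, although the difference from Col_Kyn did not pass the test (2.31, adjusted p = 0.268). LBD25, a LOB-domain factor, had 10.4 and 13.3 CPM in wei8tar2_MS and 4.08 and 4.50 CPM in Col_MS, and ZFP6, a zinc finger protein known from trichome formation, had 24.6 and 19.7 CPM in wei8tar2_MS and 7.50 and 9.10 CPM in Col_MS. GH9B18 (1.71), SADHU3-2 (1.58) and SQP2 (1.36) completed the largest log2 rises among well-read genes with a symbol. SADHU3-2 and, among those without a symbol given next, AT5G28335, AT3G29120 and AT5G33395 are annotated as pseudogenes. Without a symbol, AT5G28335 had 1.14 and 0.986 CPM in wei8tar2_MS and no read in Col_MS, which makes it at least 9.9-fold higher against a floor of 3 reads per library. AT2G38240, a 2-oxoglutarate-dependent oxygenase, rose by 3.89 (3.20 without Col_MS replicate 1 and 5.36 without replicate 2), AT4G37220, of the cold-acclimation protein family WCOR413, by 3.12 (3.95 without Col_MS replicate 2), and AT3G29120 and AT5G33395 by 3.82 and 2.36; all 4 stood at under 4 CPM in Col_MS.

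The largest falls were of several kinds as well. AGP30, an arabinogalactan protein of the root, had 28.0 and 23.0 CPM in wei8tar2_MS, 17.8 and 8.98 CPM in Col_Kyn and 101 and 75.5 CPM in Col_MS, and fell by 1.79 ± 0.29 (adjusted p = 0.0461). MSL9, a mechanosensitive channel known from root cells, had 12.8 and 16.3 CPM in wei8tar2_MS, 18.8 and 12.2 CPM in Col_Kyn and 63.3 and 40.4 CPM in Col_MS, and fell by 1.83 ± 0.27 (adjusted p = 0.0407). In both genes the line lay below each Col_MS library by more than the gap between them. The copper-oxidase-like gene sks16 (-1.87), UNE11, of the invertase and pectin methylesterase inhibitor family (-1.73), the zinc-finger homeobox gene HB25 (-1.48), the tocopherol methyltransferase G-TMT (-1.45), the cytochromes P450 CYP96A3 (-2.28) and CYP78A7 (-1.41) and DI21 (-1.38) also fell on the log2 scale. GSTU20 (AT1G78370), a glutathione transferase, fell by 1.01 ± 0.14 (adjusted p = 0.0405), with 26.1 and 31.0 CPM in wei8tar2_MS and 53.9 and 60.9 CPM in Col_MS, and was the 1 called of 32 of its family. AT1G20390, annotated as a pseudogene, fell by 3.28 (2.64 without Col_MS replicate 1). The subtilase gene AT5G59130 fell by 2.92 (2.22 without Col_MS replicate 1). AT1G50060, of the cysteine-rich secretory protein family, fell by 3.03, and the B12D protein gene AT3G29970 by 2.63. Without Col_MS replicate 1 the calls on AT1G20390 and AT1G50060 held, and those on the other genes named here and among the further rises were lost (adjusted p between 0.0522 and 0.119).

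The remaining lists held no call by edgeR or limma-voom. Flavonoid genes had a median of 0.66 over 9 members, with 3 higher at an unadjusted p under 0.05 and 1 called higher by DESeq2, but were 0.69 lower in Col_MS replicate 1 than in replicate 2, and the median was 0.32 without replicate 1. Of 5 defence genes, 8 heat shock genes and 6 shoot epidermis genes DESeq2 called 0, and 1, 1 and 0 were lower and 0 higher at an unadjusted p under 0.05. The medians of the defence and heat shock genes, -0.52 and -0.12, were 0.27 and 0.19 without Col_MS replicate 1. Both tested shoot meristem genes, STM and CUC2, had an unadjusted p above 0.05, and DESeq2 called 0. The 10 reference genes of housekeeping functions had fold changes between -0.41 and 0.29, DESeq2 called 1 lower, and 1 was lower at an unadjusted p under 0.05.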

How the data were processed

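Processed files of 6 libraries held, per the file headers, uniquely mapped read counts per gene, the authors' RPKM (count scaled by the listed gene length and the library total) and the gene length in bases; genes without a read are not listed and were set to 0. Per the submitters' processing notes, TopHat 1.3.0 aligned the reads, and the build was TAIR10. For the counting program, its strand setting and the annotation release, these sources name none: not given in the sources used here. Deposited gene length is used only through RPKM. Loci were matched by name to the RefSeq annotation of TAIR10.1 (25911 of 26185), without converting coordinates.

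Deposited counts were tested with edgeR 4.0.16 (R 4.3.3): TMM factors, the filterByExpr filter, a quasi-likelihood fit of all 6 libraries with 1 coefficient per group, and Benjamini-Hochberg adjusted p under 0.05. SE values were derived from the fold change and the F statistic. Fold changes are wei8tar2_MS over the other group. DESeq2 1.42.0 and limma-voom (limma 3.58.1) were alternatives, as were another scaling, another filter or none, a robust fit, only the 4 libraries compared, a replicate block and leaving out each library. The scripts were tested on simulated counts. With 2 libraries per group, p-values set a difference against the spread between repeats, which the fit estimated over all 6 libraries.

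The 43 gene lists and the rules were chosen with earlier results of these data known, so lists are described by counts and medians with no test. Named by rule were TAA1, TAR1 and TAR2, the 15 largest rises and falls with a symbol, no overlap between groups and a log2 CPM averaging 2 or more, the 5 largest without a symbol, and, in each list, up to 4 called members or else the 2 with the lowest p. YUC8, ICL, PYK10, FRU, PORA, RBCS1A, LHCB1.1, WOX5, BT5, PXMT1, CYP81F2, GA2OX7 and AT5G14840 were named after their values were seen. Col_MS replicate 1 and replicate 2 differed by more than sampling noise, as did every replicate pair. Floors of 3 reads cover counting error only.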

Additional observations from a re-analysis of the deposited data

How the results depend on the processing

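The count of 230 genes called against Col_MS was 1313 by DESeq2, 1113 with no filter on low counts, 352 with only the 4 libraries compared and 367 with a replicate block, and lay between 4 and 1719 when 1 library was left out; limma-voom (216), other scalings (228 and 244), a minimum of 1 CPM (214) and a robust fit (273) stayed within 1.5 times of it. The count of 6 called against Col_Kyn was 55 by DESeq2, 12 with library totals alone, 26 with no filter, 11 with only 4 libraries, 12 with the replicate block and 13 with the robust fit, and lay between 4 and 17 when 1 library was left out. The labels do not say that equal replicate numbers mark a shared batch, and the correlations of same-numbered libraries in their deviations from the group means were 0.022, -0.039 and 0.202 over the 3 pairs of groups, so they were not treated as pairs. The replicate block ended no call on the 57 named genes that were called. Of these 57, 0 changed direction under any alternative tried; 12 stayed called without Col_MS replicate 1, 5 and 4 without wei8tar2_MS replicate 1 and replicate 2, and at least 51 under every alternative that kept all libraries. Of the 43 list medians, 7 had the other sign without Col_MS replicate 1 and 6 without Col_MS replicate 2. No gene was at 3 reads or fewer in both libraries of 1 group while averaging 10 CPM, or 5 CPM, in the other. The causes were not tested; fits without 1 library rest on fewer samples. Genes at a few reads, such as ACS9 and PLT1, are limited by depth.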

Other observations

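Some groups of genes were put together by annotated product after the values had been seen, so that each group is given by its counts alone. Over all genes tested edgeR called 0.563% higher and 0.516% lower. The ribosomal protein and pentatricopeptide repeat groups below lay near the latter share. Members of the NPH3 family, whose proteins work in phototropism and in placing auxin carriers, changed in both directions. RPT2, a phototropism gene, had 85.7 and 88.4 CPM in wei8tar2_MS, 62.5 and 88.0 CPM in Col_Kyn and 32.8 and 41.8 CPM in Col_MS, and rose by 1.22 ± 0.18 (edgeR adjusted p = 0.0419). NPY4 had 0.845 and 0.749 CPM in wei8tar2_MS, 0.513 and 0.515 CPM in Col_Kyn and 4.55 and 3.76 CPM in Col_MS, and fell by 2.37 ± 0.28 (adjusted p = 0.0263). NPY5 fell by 0.57 ± 0.09 (adjusted p = 0.0461), with 44.4 and 42.9 CPM in wei8tar2_MS and 66.6 and 63.0 CPM in Col_MS. PKS1, a partner of phototropins outside the family, rose by 1.01 ± 0.17 (adjusted p = 0.0461), with 30.0 and 28.5 CPM in wei8tar2_MS and 12.6 and 16.4 CPM in Col_MS. Of 28 tested NPH3-domain genes 1 was called higher and 2 lower. Of 5 BTB and TAZ domain genes, which respond to sugars and nitrogen, 2 rose: BT1, with 59.4 and 60.1 CPM in wei8tar2_MS and 25.1 and 25.9 CPM in Col_MS, and BT5, with 18.3 and 16.3 CPM in wei8tar2_MS and 6.51 and 8.36 CPM in Col_MS. Of these genes BT1 alone was still called without Col_MS replicate 1 (adjusted p = 0.0317).

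Growth-regulating factors, which promote cell division in young organs, had 3 called lower of 9, with a median of -0.76. AT4G37740, the growth-regulating factor named GRF2, had 24.1 and 27.5 CPM in wei8tar2_MS, 35.2 and 31.5 CPM in Col_Kyn and 50.2 and 47.5 CPM in Col_MS, and fell by 0.92 ± 0.12 (edgeR adjusted p = 0.0334). Ribosomal protein genes had few calls: 342 of 363 were negative, 212 were lower at an unadjusted p under 0.05 and 3 were called lower, with a median of -0.38 against -0.02 over all genes. Over all genes tested 11351 of 21326 were negative, and 11.3% were lower at an unadjusted p under 0.05. Of 248 pentatricopeptide repeat genes, which act on organellar RNA, 194 were negative and 1 was called lower. Chaperonins had 2 called lower of 20 and glycine-rich RNA-binding proteins 3 called lower of 5. Mannose-binding and jacalin lectins had 7 called lower of 29, with fold changes between -2.52 and -1.07 among the called, while 14 of the 29 were positive. Of 80 genes of 2-oxoglutarate-dependent oxygenases 4 were called higher. Without Col_MS replicate 1, AT4G37740 and all other calls on the families of this paragraph were lost, except those on the lectins AT1G33790 and AT5G35940 and the oxygenases AT1G12010 and AT5G05600.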
